A study of Mus musculus with 36 samples.

Results

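Adipokines are hormones and signalling proteins that fat tissue releases into the blood. The 10 adipokine genes described here are Lep, Adipoq, Retn, Cfd, Rarres2, Rbp4, Nampt, Apln, Nrg4 and Sfrp5. They were taken by gene symbol from the authors' comparison tables of inguinal white adipose tissue (iWAT, the subcutaneous fat pad of the groin), and all 10 of them had a row in each of its 3 gene tables. The tables of both tissues together list 16060 genes. Total RNA was sequenced from C57BL/6J mice, an inbred laboratory strain, that had spent 16 weeks on 1 of 3 diets. The calorie-restricted mice (CR) received less food, the time-restricted mice (TR) were limited in feeding time but not in calories, and the control mice ate ad libitum (AL). Each diet has 6 iWAT libraries and 6 liver libraries, and the 36 libraries come from 20 mice, of which 16 gave both tissues. Not given in the sources used here were sex, age and the hour of tissue collection, so diet and time since the last meal cannot be told apart. TR set beside CR addresses how far limited feeding time alone goes with the changes of calorie restriction.

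Leptin, adiponectin, resistin and adipsin (the Cfd product) are made largely by adipocytes in mice. Leptin tells the brain how much fat is stored, and its gene is known to follow fat cell size and feeding. Adiponectin raises insulin sensitivity, while resistin and the retinol carrier RBP4 have been linked to insulin resistance in mice. The other members act more locally or through other tissues. Chemerin (Rarres2) attracts immune cells, SFRP5 binds and blocks WNT proteins, apelin acts on vessels, and neuregulin 4 is released by brown and beige fat and acts on the liver. NAMPT makes a precursor of NAD inside cells and is also found in blood.

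The promoters of 4 members are shown first, each as the 150 bases that lie 170 to 21 bases before the RefSeq transcription start (GRCm38.p6). They were picked because Sfrp5 and Lep fell and Retn rose in TR iWAT, and because Adipoq passed the test in neither diet. Capitals mark matches to the 7 motifs that were searched on both strands.

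Sfrp5 (chr19:42202273-42202422, - strand): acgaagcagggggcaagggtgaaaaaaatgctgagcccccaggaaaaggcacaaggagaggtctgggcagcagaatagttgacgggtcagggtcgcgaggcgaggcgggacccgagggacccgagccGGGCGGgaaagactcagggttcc
Lep (chr6:29060051-29060200, + strand): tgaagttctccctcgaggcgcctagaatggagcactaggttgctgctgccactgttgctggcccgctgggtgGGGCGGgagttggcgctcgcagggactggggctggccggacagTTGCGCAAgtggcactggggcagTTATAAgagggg
Retn (chr8:3655600-3655749, + strand): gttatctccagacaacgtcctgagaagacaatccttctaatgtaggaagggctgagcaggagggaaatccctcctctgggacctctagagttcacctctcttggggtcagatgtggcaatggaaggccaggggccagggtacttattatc
Adipoq (chr16:23146366-23146515, + strand): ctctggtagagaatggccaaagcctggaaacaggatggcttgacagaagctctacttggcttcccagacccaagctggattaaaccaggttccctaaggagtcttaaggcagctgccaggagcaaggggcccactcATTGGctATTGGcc

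Lep held the palindrome TTGCGCAA, the textbook binding site of C/EBP factors, which lies in only 37 of 32851 RefSeq windows of the same length (0.113%). The same Lep window held a GC box (GGGCGG, in 26.4% of all windows) and a TATA box (TATAA, in 14.8%). In Sfrp5 the only match was a GC box. Adipoq held a CCAAT box (CCAAT, in 24.6%) read on the other strand, at 2 places. Retn held no match. RefSeq gave a window for 9 of the 10 members, all but Rarres2. Across these 9, the GC box lay in 5 (Lep, Rbp4, Nampt, Apln and Sfrp5) and the TATA box in 2 (Lep and Rbp4). Rbp4, which also rose in TR iWAT, is not among the sequences shown. The E-box CACGTG (3.99% of all windows), the direct repeat bound by PPAR and RXR (0.0274%) and the sterol element core TCACNCCAC (0.612%) were in none of those 9 windows. These matches describe letters, and no binding was measured.

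The values are the authors' edgeR comparisons of pairs of diets. Each gives a log2 fold change, a log2 mean level in CPM (read counts scaled to library size) and a likelihood-ratio test. "Adjusted p" below is that test's p after Benjamini-Hochberg adjustment over all genes (or transcripts) of the table, and "rose" or "fell" is written only where it is under 0.05. Levels per library are not in these tables, so the depth is unknown and no spread within a group can be given. The error printed is an approximate standard error (SE), found by dividing the absolute log2 fold change by the root of the likelihood-ratio statistic. Levels per diet are approximate means worked out from the deposited mean level and fold change. For AL they came out almost alike from its comparison with CR and from that with TR, within 1.01-fold for every member.

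Marker genes of iWAT and of tissues that a groin fat sample can carry were checked first. All 12 adipocyte markers were measured, with a summed level of 32757 CPM in CR and 30547 CPM in AL, and of 36082 CPM in TR and 30247 CPM in AL. The median log2 fold change of these 12 was -0.05 for CR minus AL and 0.08 for TR minus AL. Of 9 hepatocyte markers, 8 fell in CR, where they summed to 197 CPM against 1042 CPM in AL. In TR the same 9 summed to 6726 CPM against 1033 CPM in AL, with none past the adjusted test and 1 with an unadjusted p under 0.05. The 12 skeletal muscle markers summed to 6421 CPM in CR against 2837 CPM in AL, and none passed the test, adjusted or not. In TR they summed to 378 CPM against 2823 CPM in AL, and 6 of the 12 fell. The 9 lymphocyte markers, which a lymph node in the pad would bring, summed to 593 CPM in CR against 251 CPM in AL and to 468 CPM in TR against 239 CPM in AL. All 9 had positive values on both diets (medians 1.22 and 1.04), and none passed the test, adjusted or not. Which libraries carry this RNA cannot be read from comparison tables.

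Per kb of its main transcript, Cfd was the most abundant member in AL iWAT, at 5934 CPM per kb. Adipoq followed with 2229, Retn with 1009, Lep with 746, Rarres2 with 527 and Rbp4 with 279 CPM per kb. Sfrp5 (44.4), Nrg4 (40.0), Nampt (29.0) and Apln (5.40 CPM per kb) were the 4 lowest. This order has no spread behind it, so neighbours such as Sfrp5 and Nrg4 cannot be separated. In both restricted diets Sfrp5 took the last place, with 5.24 CPM per kb in CR and 7.23 in TR, below Apln with 7.24 in CR and 9.76 in TR. By mean level in the authors' deposited table for CR against AL, the members ranged from the 51.7th percentile of all genes (Apln) to the 99.9th (Cfd).

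**Figure D1:**
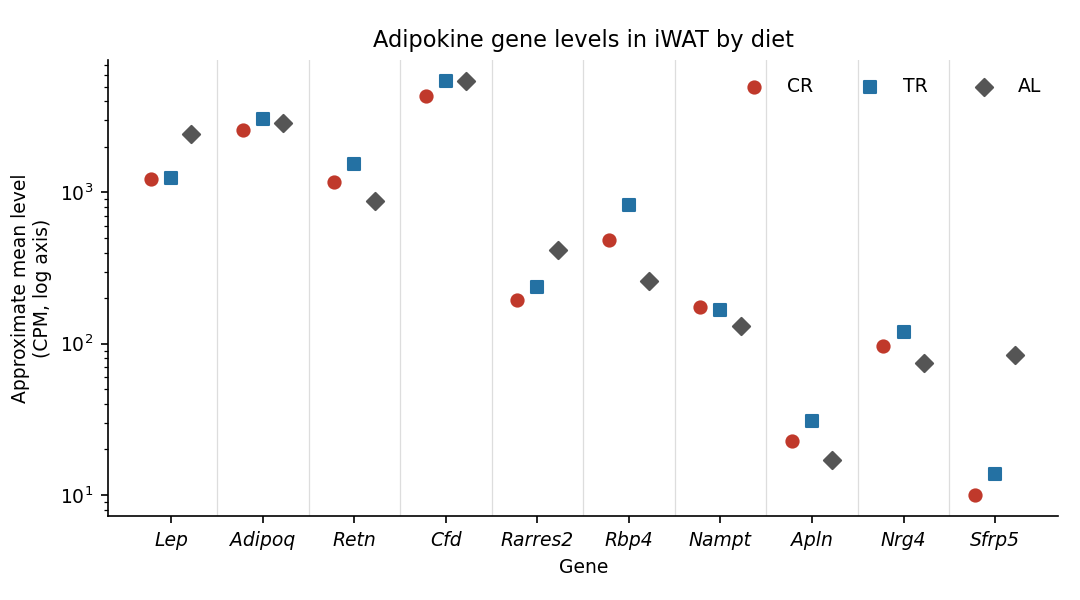
Approximate mean level of each adipokine gene in iWAT in CPM (vertical log axis) for CR (circles), TR (squares) and AL (diamonds), with no error bars because the tables hold no values per library. Sfrp5 lies at 9.96 CPM in CR and 13.7 CPM in TR against 84.5 CPM in AL, while Adipoq stays between 2602 and 3042 CPM in the 3 diets.

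In CR, 2 of the 10 genes fell (Sfrp5 and Rarres2) and none rose, where 3.78% of 15295 genes fell and 3.52% rose. In TR, 2 fell (Sfrp5 and Lep) and 2 rose (Rbp4 and Retn), where 5.24% of 15356 genes fell and 4.76% rose. At an unadjusted p under 0.05 there were 4 members in CR and 7 in TR, where 19.7% and 23.0% of all genes had one. The median log2 fold change of the members was 0.10 for CR minus AL and 0.22 for TR minus AL, beside 0.02 and -0.04 over all genes. Both comparisons use the same AL libraries, so their values are given side by side and are not independent. The members and gene lists were chosen with earlier results of these data known, so counts beside shares of all genes are no test. In bulk tissue, fewer cells of a type and less RNA per cell cannot be told apart.

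**Figure D2:**
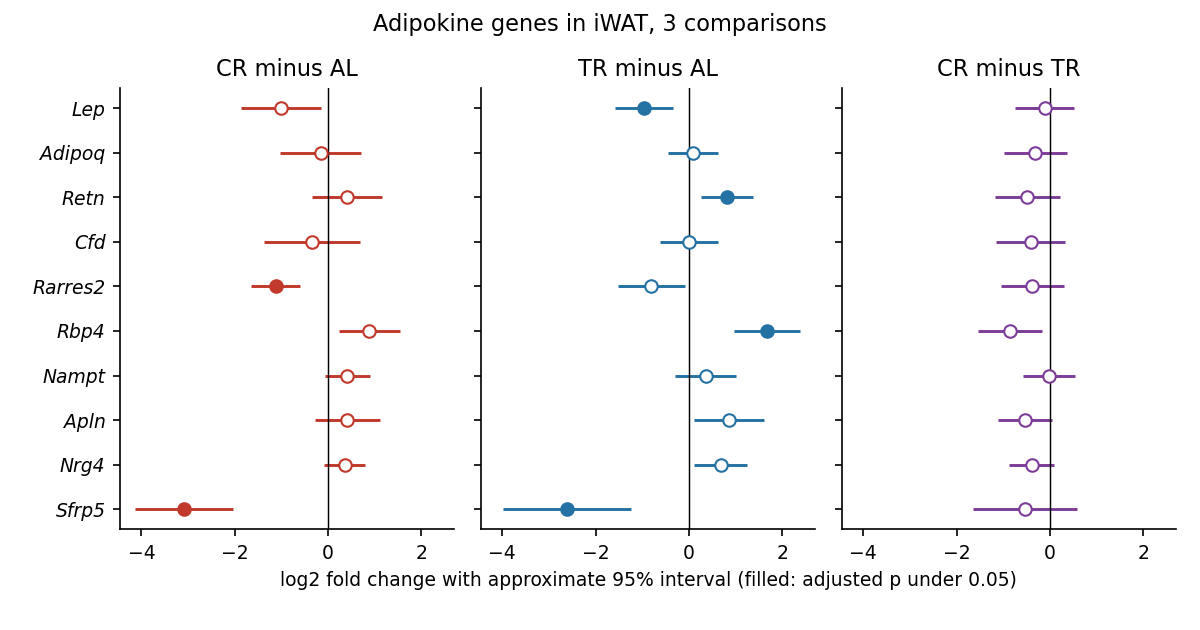
Log2 fold changes of the 10 genes in iWAT with approximate 95% intervals for CR minus AL, TR minus AL and CR minus TR; filled points have an adjusted p under 0.05. Sfrp5 lies furthest from 0 against AL on both diets, and no point of CR minus TR is filled.

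Sfrp5 (chr19:42197971-42202252, minus strand, GENCODE M21 on GRCm38), the secreted WNT inhibitor, had the values furthest from 0. Its level was 9.96 CPM in CR and 13.7 CPM in TR, against 84.5 CPM in AL. For CR minus AL the authors' deposited table gave a log2 fold change of -3.09 (SE 0.53, adjusted p = 1.26e-06), which is 0.117 of the AL level. The TR libraries gave -2.61 against AL in the authors' deposited table (SE 0.70, adjusted p = 0.0046), or 0.163 of the AL level. Both restricted diets thus lay far below AL, with approximate 95% intervals of -4.13 to -2.05 in CR and -3.98 to -1.25 in TR. For Wnt5a, the WNT ligand that SFRP5 is known to bind, the values were -0.57 in CR and -0.92 in TR, per the authors' deposited table (adjusted p = 0.287 and 0.0550).

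Lep (chr6:29060220-29073877, plus strand), which encodes leptin, was at 1218 CPM in CR and 1246 CPM in TR, against 2430 CPM in AL. Against AL, the TR value was -0.96 in the authors' deposited table (SE 0.32, adjusted p = 0.0300), a fall to 0.515 of the AL level. For CR minus AL the authors' deposited table gave nearly the same value, -1.0, with a larger SE of 0.44 (adjusted p = 0.158). Lep therefore passed the test in TR only, while CR and TR themselves differed by -0.11 (SE 0.32) in the authors' deposited table. The interval of that difference runs from -0.75 to 0.52.

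Adiponectin's gene Adipoq was at 2602 CPM in CR, 3042 CPM in TR and 2880 CPM in AL. Against AL, the authors' deposited table gave a log2 fold change of -0.15 (SE 0.44) for CR and 0.09 (SE 0.27) for TR, with adjusted p = 0.879 and 0.882. The approximate 95% interval was -1.02 to 0.72 in CR and -0.45 to 0.62 in TR. A 2-fold rise (1 on the log2 scale) thus lay outside the interval of both diets, and a fall of that size inside that of CR.

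Retn (chr8:3655770-3660110, plus strand), the resistin gene, was at 1175 CPM in CR and 1537 CPM in TR, against 882 CPM in AL. It rose in TR, by a log2 fold change of 0.81 in the authors' deposited table (SE 0.28, adjusted p = 0.0455), which is close to the threshold. With all fold changes taken relative to the median of the adipocyte markers, the adjusted p was 0.0742. In CR the authors' deposited table gave 0.41 (SE 0.39, adjusted p = 0.598).

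Cfd encodes adipsin, a serine protease that activates complement factor B. It was at 4345 CPM in CR, 5436 CPM in TR and 5471 CPM in AL. The log2 fold change in the authors' deposited table was -0.34 (SE 0.53) for CR minus AL and 4.87e-04 (SE 0.32) with TR, and neither passed the test (adjusted p = 0.761 and 0.999).

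Rarres2 encodes chemerin, whose processed form attracts macrophages and dendritic cells. It was at 194 CPM in CR and 238 CPM in TR, against 419 CPM in AL. It fell in CR, by a log2 fold change of -1.12 in the authors' deposited table (SE 0.27, adjusted p = 0.0016), to 0.460 of the AL level. For TR minus AL the value was -0.81 in the authors' deposited table (SE 0.37, adjusted p = 0.152). Rarres2 overlaps the gene Lrrc61 on the opposite strand over 1027 bases, and the labels do not say whether the counting used strand. The authors' deposited table gave Lrrc61 itself 0.27 in CR and 0.21 in TR, with adjusted p = 0.636 and 0.731.

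Rbp4 (chr19:38116629-38125281, minus strand) encodes the plasma carrier of retinol, made in liver and in fat. Its level was 484 CPM in CR and 825 CPM in TR, against 261 CPM in AL. It rose in TR by a log2 fold change of 1.67 in the authors' deposited table (SE 0.36, adjusted p = 2.36e-04), which is 3.18 times the AL level. In CR the authors' deposited table gave 0.88 (SE 0.33, adjusted p = 0.0844).

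Because Rbp4 is abundant in liver, the amount that liver RNA could bring to iWAT was estimated. The 9 hepatocyte markers of iWAT stood at 0.137% of their liver level in CR, 4.44% in TR and about 0.980% in AL. At those shares liver RNA would bring 3.57 CPM of Rbp4 to CR iWAT, 126 CPM to TR iWAT and 25.1 CPM to AL iWAT. That is 15.2% of the TR level. With these amounts taken off, the log2 ratio of Rbp4 was 1.02 for CR against AL and 1.58 for TR against AL. Using the highest share of any single marker, 6.58% in TR, the ratio for TR against AL was 1.52. Rarres2 treated in the same way had log2 ratios of -1.12 for CR against AL and -0.92 for TR against AL. All these ratios rest on approximate group means and have no error. Whether a call would hold without the liver RNA was not tested.

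Apelin's gene Apln, a ligand for a receptor on vessels and heart, was at 22.8 CPM in CR and 30.7 CPM in TR, against 17.02 CPM in AL. In the authors' deposited table its value was 0.41 (SE 0.36, adjusted p = 0.556) for CR minus AL and 0.86 (SE 0.38, adjusted p = 0.141) for TR minus AL. Nrg4, the neuregulin ligand of ERBB receptors, was at 96.8 CPM in CR and 119 CPM in TR, against 75.1 CPM in AL. The authors' deposited table gave Nrg4 0.36 (SE 0.22, adjusted p = 0.380) in CR and 0.68 (SE 0.29, adjusted p = 0.128) in TR. Neither gene passed the test on either diet. Nampt, the enzyme of NAD salvage, was at 175 CPM in CR and 168 CPM in TR, against 131 CPM in AL. The values of 0.41 (SE 0.25) in CR and 0.36 (SE 0.33) in TR did not pass in the authors' deposited table (adjusted p = 0.363 and 0.548). Nampt overlaps the noncoding gene Gdap10 on the same strand over 5033 bases, which counting by strand would not separate.

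CR and TR set directly against each other gave no call among the 10 genes, where 0.918% of 14699 genes passed. The only member with an unadjusted p under 0.05 was Rbp4, at a log2 fold change of -0.86 in the authors' deposited table (SE 0.35, p = 0.0136, adjusted p = 0.584). All 10 members had a negative value for CR minus TR, against 48.0% of all genes, and their median was -0.40 beside 0.01 over all genes. Nampt, at -0.02 in the authors' deposited table, became 0.080 when fold changes were centred on the adipocyte markers. The 10 values come from the same libraries and do not count as separate observations. Worked out from the 2 comparisons with AL, the difference was 0.05 to 0.08 higher for every member than in the direct comparison. By that route Nampt had a positive difference, 0.04 in place of -0.02, so not all 10 were negative. Adipocyte markers summed to 28500 CPM in CR and 33301 CPM in TR (median -0.10 for CR minus TR). Muscle markers summed to 5892 and 350 CPM, and hepatocyte markers to 171 and 6010 CPM. The part of this make-up in the members' values was not tested. For Rbp4, the log2 ratio of the CR and TR levels worked out from their AL comparisons was -0.77. It was -0.54 after the liver RNA was taken off, or -0.41 with the highest share of any single marker. No error or test goes with these ratios.

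At the transcript level 24 transcripts of the 10 genes were tested for CR minus AL and 25 for TR minus AL. In CR, 4 fell and none rose, where 1.03% of 34231 transcripts fell and 1.42% rose. In TR, 2 fell and 2 rose, where 1.52% of 34175 fell and 2.03% rose. For CR minus TR none of 24 passed, with 2 at an unadjusted p under 0.05, against 0.413% of 31936. RSEM divides reads among overlapping transcripts, so levels of single transcripts are less certain than those of genes.

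Nearly all of the Lep, Adipoq and Rbp4 signal came from 1 transcript each. Adipoq-201, for one, held 99.8% of the Adipoq level in CR, 99.7% in TR and 99.8% in AL. Rbp4-202 rose in TR by 1.67 in the authors' deposited table (SE 0.37, adjusted p = 8.89e-04). Sfrp5-201, the only Sfrp5 transcript tested, fell on both diets, with -3.13 in CR and -2.63 in TR, per the authors' deposited table (adjusted p = 5.93e-06 and 0.0139). Lep-201 had -1.03 in CR and -0.96 in TR, per the authors' deposited table, with adjusted p = 0.231 and 0.103, so at this level Lep passed in neither diet. Cfd was divided between Cfd-201, with 73.1% in CR, 77.6% in TR and 74.2% in AL, and the shorter Cfd-202, and none of these passed.

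Rarres2 (chr6:48569696-48572789, minus strand in GENCODE M21) had 5 transcripts. The retained-intron transcript Rarres2-202 fell on both diets, with -1.63 in CR and -1.89 in TR, per the authors' deposited table (SE 0.32 each, adjusted p = 8.37e-05 and 1.77e-06). It made up 9.55% of the Rarres2 level in CR and 6.27% in TR, against 13.2% in AL. The main coding transcript Rarres2-204 fell in CR by -1.04 and stood at -0.65 in TR, per the authors' deposited table (adjusted p = 0.0208 and 0.494). Rarres2-201, also coding, fell in CR at -1.19 and had -0.79 in TR, per the authors' deposited table (adjusted p = 0.0042 and 0.373). So in TR the transcript that passed was the retained-intron one, which is not annotated as coding, and whether it moved more than the coding ones was not tested.

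Nrg4 (chr9:55220222-55326844, minus strand) was spread over 7 transcripts, most of them not annotated as coding. The coding Nrg4-213 made up 25.4% of the Nrg4 level in CR and 17.7% in TR, against 18.5% in AL. The values of Nrg4-213 were 0.79 in CR and 0.63 in TR, per the authors' deposited table (adjusted p = 0.399 and 0.556). The processed transcript Nrg4-210 (chr9:55221222-55242461), which starts inside the gene, rose in TR by 3.39 in the authors' deposited table (SE 0.61, adjusted p = 7.81e-06). For CR its value in the authors' deposited table was 2.43 (SE 0.83, adjusted p = 0.103). Nrg4-210 was at 7.59 CPM in CR, 14.2 CPM in TR and 1.41 CPM in AL. The most abundant transcript, the processed Nrg4-209, held 39.6% in CR, 40.9% in TR and 60.7% in AL, and passed on neither diet. Nrg4 overlaps Fbxo22 on the opposite strand, which had -0.35 in CR and -0.34 in TR, per the authors' deposited table (adjusted p = 0.385 and 0.399).

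**Figure D3:**
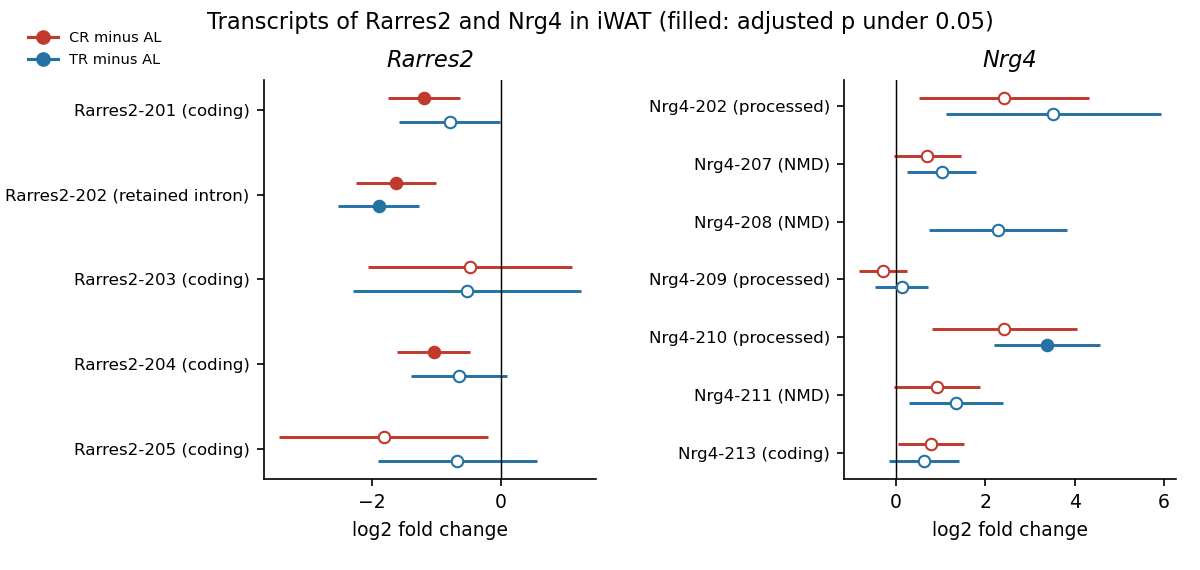
Log2 fold changes of the Rarres2 and Nrg4 transcripts in iWAT with approximate 95% intervals, CR minus AL above TR minus AL for each transcript; filled points have an adjusted p under 0.05 and NMD stands for nonsense-mediated decay. The retained-intron Rarres2-202 is filled on both diets (-1.63 and -1.89), and among Nrg4 transcripts the only filled point is Nrg4-210 in TR (3.39).

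Genes that receive, bind or act with the 10 adipokines fell in a few cases and rose in none in iWAT. Of 21 measured, 4 fell in CR (C3ar1, C5ar1, Gpr1 and Ttr) and 1 fell in TR (C3ar1), with medians of -0.52 and -0.19. Of all genes, 3.78% fell in CR and 5.24% fell in TR, and the TR count is near that share. Centred on the adipocyte markers, 2 of the 21 fell in CR and 2 in TR. C3ar1, the receptor for the complement fragment C3a, was at 11.1 CPM in CR and 26.7 CPM in AL, and at 9.77 CPM in TR and 26.5 CPM in AL. C3ar1 thus had -1.26 in CR and -1.44 in TR, per the authors' deposited table (adjusted p = 0.0319 and 0.0256). C5ar1, the C5a receptor, had -1.13 in CR and -1.06 in TR, per the authors' deposited table (adjusted p = 0.0382 and 0.126). Both are receptors of myeloid cells. Macrophage markers summed to 955 CPM in CR against 1269 CPM in AL and to 882 CPM in TR against 1251 CPM in AL. Of those 9 markers, 1 fell in CR (Mrc1) and 3 fell in TR (Itgam, Mrc1 and Trem2), and 8 had negative values on each diet. Their part in the complement receptors' values was not tested.

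Gpr1, a chemerin receptor, had -1.59 in CR and -1.22 in TR, per the authors' deposited table (adjusted p = 0.0478 and 0.190), at 1.55 CPM in CR against 4.67 CPM in AL. The main chemerin receptor gene Cmklr1 had -0.09 in CR and 0.20 in TR, per the authors' deposited table. Ttr, whose product carries RBP4 in plasma, is also one of the 9 hepatocyte markers. It was at 3.83 CPM in CR against 48.8 CPM in AL, and at 265 CPM in TR against 48.4 CPM in AL. Ttr was also the only 1 of 20 partners to pass for CR minus TR, at -6.12 in the authors' deposited table (adjusted p = 0.0320). The adiponectin receptors Adipor1 and Adipor2 and the leptin receptor Lepr had values between 0.15 and 0.52 in CR and between 0.28 and 0.36 in TR, per the authors' deposited table, none of which passed.

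Genes for adipokine production and secretion gave no call in iWAT. None of 16 passed there in any of the 3 comparisons, with 2 (CR minus AL), 4 (TR minus AL) and 1 (CR minus TR) at an unadjusted p under 0.05, and with medians of -0.08, -0.11 and -0.09. Pparg, the master regulator of adipocyte genes, had 0.04 in CR and 0.07 in TR, per the authors' deposited table. Cebpa, whose product activates the leptin promoter, had -0.54 in CR and -0.23 in TR, per the authors' deposited table (adjusted p = 0.272 and 0.731). The smallest adjusted p-values of the list were those of Srebf1, Gstk1, Nmnat1, Foxo1 and Sirt1, between 0.132 and 0.238. Srebf1, a regulator of lipid synthesis genes, had 0.82 in CR and 0.88 in TR, per the authors' deposited table (adjusted p = 0.174 and 0.132).

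A list of other secreted factors of fat, chosen with earlier results of these data known, held several that fell. Of 31 measured in CR, 7 fell and none rose (Agt, C1qtnf7, Ccn5, Fbn1, Fst, Retnla and Slit2). Of 32 in TR, 6 fell and none rose (C1qtnf7, Ccn5, Fbn1, Fst, Sfrp1 and Slit2). Of all genes, 3.78% fell in CR and 5.24% fell in TR. The list had medians of -0.77 (CR) and -0.72 (TR), and for CR minus TR none of 31 passed, with 1 at an unadjusted p under 0.05. Ccn5, a secreted WNT target, had -3.46 in CR and -3.29 in TR, per the authors' deposited table (adjusted p = 2.09e-09 and 4.90e-06). Sfrp1, a relative of Sfrp5, had -1.30 in CR and -1.62 in TR, per the authors' deposited table (adjusted p = 0.0572 and 0.0329). Fbn1, which encodes fibrillin and the hormone asprosin cut from it, had -1.27 in CR and -1.90 in TR, per the authors' deposited table (adjusted p = 0.0114 and 3.36e-04). Retnla, a secreted relative of resistin, had -1.42 in CR and -1.10 in TR, per the authors' deposited table (adjusted p = 0.0065 and 0.172). Slit2, a secreted guidance factor, had -1.94 in CR and -2.44 in TR, per the authors' deposited table (adjusted p = 0.0210 and 3.38e-04). Agt, the angiotensin precursor, had -2.33 in CR and -0.72 in TR, per the authors' deposited table (adjusted p = 1.28e-04 and 0.561).

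Markers of adipose progenitors, which make much of the matrix of fat, are given beside that list. The 8 markers summed to 1270 CPM in CR against 2449 CPM in AL and to 1150 CPM in TR against 2430 CPM in AL. Of the 8, 1 fell in CR (Dcn) and 2 fell in TR (Dcn and Pdgfra), where 3.78% and 5.24% of all genes fell. All 8 had negative values on both diets, with medians of -0.64 in CR and -0.85 in TR. At an unadjusted p under 0.05 there were 5 in CR and 4 in TR. The part of progenitors in the secreted factors' values was not tested.

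Genes tied to fat cell size and stress in mice fell in 4 of 11 cases on each diet, the same 4 each time, and none rose. They were Mest, Npr3, Bmp3 and Tph2, where 3.78% of all genes fell in CR and 5.24% in TR. This list was chosen with earlier results of these data known, so its count beside those shares is no test. Mest, an imprinted gene known to follow the expansion of fat, was at 39.5 CPM in CR against 573 CPM in AL, and at 28.2 CPM in TR against 569 CPM in AL. Mest had -3.86 in CR and -4.33 in TR, per the authors' deposited table (adjusted p = 1.01e-12 and 1.09e-09). Npr3, the clearance receptor of natriuretic peptides, had -1.61 in CR and -2.20 in TR, per the authors' deposited table (adjusted p = 0.0017 and 1.23e-06). Bmp3 had -1.36 in CR and -1.37 in TR, per the authors' deposited table (adjusted p = 0.0018 and 0.0058). Tph2, at 0.637 CPM in CR and 0.357 CPM in TR against 5.53 and 5.51 CPM in AL, had -3.12 in CR and -3.95 in TR, per the authors' deposited table (adjusted p = 0.0393 and 0.0217). Cd36, a fatty acid carrier, had -0.56 in CR and -0.70 in TR, per the authors' deposited table (adjusted p = 0.529 and 0.0541). The list's medians were -0.91 on both diets, and for CR minus TR none of 10 passed, adjusted or not.

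**Figure D4:**
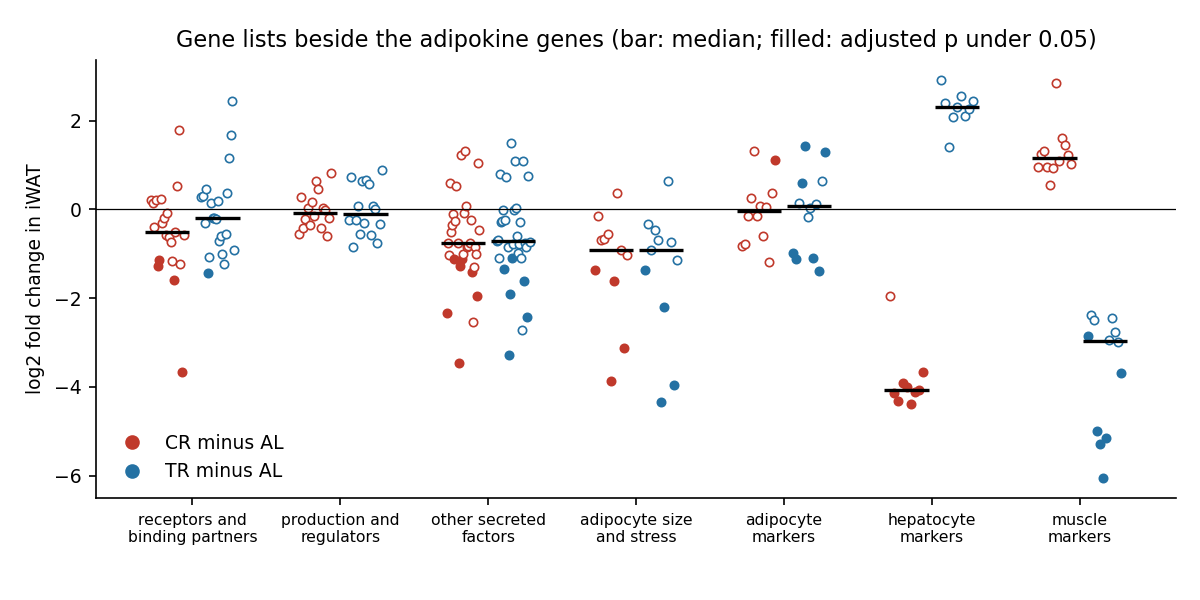
Log2 fold changes in iWAT of the genes of 4 lists around the adipokines and of 3 marker lists, for CR minus AL (left column of each list) and TR minus AL (right column); bars are medians and filled points have an adjusted p under 0.05. Medians lie below 0 for other secreted factors (-0.77 and -0.72) and for size and stress genes (-0.91 and -0.91), while hepatocyte markers lie at -4.07 in CR and 2.32 in TR.

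In the liver 5 of the 10 genes had rows (Nrg4, Rarres2, Rbp4, Nampt and Cfd). In CR, 1 rose and 1 fell, where 5.79% of 12636 liver genes rose and 5.37% fell. In TR, 2 rose and 1 fell, where 9.35% of 12691 rose and 9.54% fell. For CR minus TR none of the 5 passed, adjusted or not, against 0.469% of 12593.

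Nrg4 rose in the liver on both diets at the gene level. It was at 7.91 CPM in CR and 8.57 CPM in TR, against 4.31 CPM in AL. The authors' deposited table gave it 0.88 in CR and 0.99 in TR (SE 0.17 each, adjusted p = 1.92e-05 and 1.40e-07). None of its liver transcripts passed on either diet. The coding Nrg4-213 had 0.50 in CR and -0.25 in TR, per the authors' deposited table (adjusted p = 0.979 and 0.951). It made up 35.8% of the liver Nrg4 level in CR against 42.2% in AL, and 18.4% in TR against 41.3% in AL. The iWAT value less the liver value was -0.52 (SE 0.28) in CR and -0.31 (SE 0.34) in TR. By an approximate z test, 2-sided and adjusted over the 12012 genes (CR) or 12201 genes (TR) measured in both tissues, neither difference passed (adjusted p = 0.312 and 0.644). Over all those genes 6.73% passed in CR and 7.81% in TR.

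Rarres2 had values of the other sign in the liver than in iWAT. Its liver level was 376 CPM in CR and 419 CPM in TR, against 292 CPM in AL. It rose in TR by 0.51 in the authors' deposited table (SE 0.15, adjusted p = 0.0068) and had 0.37 in CR (SE 0.15, adjusted p = 0.0961). The difference between tissues, iWAT less liver, was -1.49 in CR (SE 0.31, adjusted p = 2.08e-04) and -1.32 in TR (SE 0.40, adjusted p = 0.0173). Of 20 mice, 16 gave both tissues and the test takes these as uncorrelated. With a correlation of -0.3 between tissues, the TR difference had an adjusted p of 0.0505. Of its 5 liver transcripts in TR only the coding Rarres2-204 passed, at 0.57 in the authors' deposited table (adjusted p = 0.0487), where 3.94% of 26648 liver transcripts passed. In CR none of 12 liver transcripts of the members passed, 2 of them with an unadjusted p under 0.05, against 2.66% of 26448. For CR minus TR none of 12 passed, adjusted or not, against 0.323% of 26042.

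Rbp4 was abundant in the liver, at 2601 CPM in CR and 2829 CPM in TR, against 2570 CPM in AL. There it had 0.02 in CR and 0.13 in TR, per the authors' deposited table (SE 0.16 each, adjusted p = 0.956 and 0.616). The iWAT value less the liver value was 1.53 in TR (SE 0.40, adjusted p = 0.0040) and 0.86 in CR (SE 0.37, adjusted p = 0.163). Nampt had liver values of 0.24 in CR and 0.34 in TR, per the authors' deposited table (adjusted p = 0.255 and 0.0591), and its tissues differed by 0.17 in CR and 0.02 in TR, which did not pass.

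Cfd fell in the liver, where it was close to the lowest measured levels. It was at 0.402 CPM in CR and 0.295 CPM in TR, against 1.65 CPM in AL. The authors' deposited table gave it -2.04 in CR and -2.47 in TR (SE 0.63 and 0.81, adjusted p = 0.0165 and 0.0170). The iWAT value less the liver value gave 1.70 in CR and 2.48 in TR, and neither difference passed (adjusted p = 0.235 and 0.0551). Adipocyte markers were measured in the liver for 10 of 12 genes, all but Plin1 and Acvr1c. Lep, Adipoq and Retn had no liver row either. In CR, 5 fell (Adrb3, Cidec, Gpd1, Plin4 and Pnpla2) and 1 rose (Slc2a4). In TR, 4 fell (Adrb3, Cidec, Gpd1 and Plin4) and 2 rose (Lipe and Slc2a4). The medians of the 10 were -0.37 in CR and -0.23 in TR. Of all liver genes, 5.37% fell in CR and 9.54% in TR. Among the 10, Gpd1 stood at 584 CPM and Pck1 at 317 CPM in AL liver, so the list does not mark fat cells alone there. Fabp4, an abundant adipocyte gene outside those that passed, was at 7.13 CPM in CR and 6.90 CPM in TR, against 5.37 CPM in AL. The part of fat cells in the liver samples in the Cfd values was not tested.

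**Figure D5:**
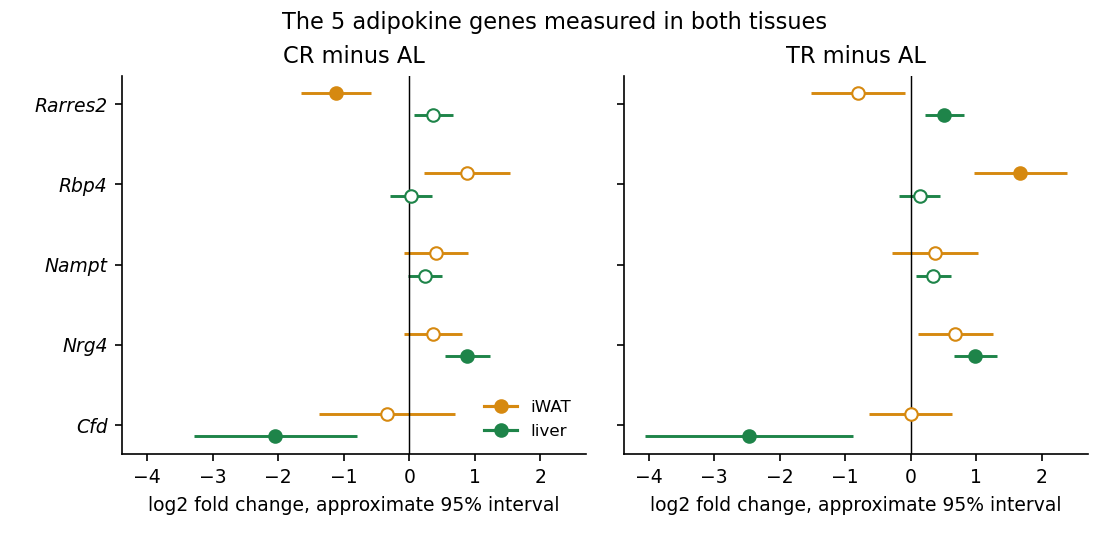
Log2 fold changes of the 5 genes measured in both tissues, iWAT above liver for each gene, for CR minus AL and TR minus AL, with approximate 95% intervals; filled points have an adjusted p under 0.05. Rarres2 lies below 0 in iWAT and above 0 in liver on both diets, and Rbp4 lies above 0 in TR iWAT (1.67) and near 0 in liver (0.13).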

How the data were processed

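RNA of 36 libraries, 6 in each group of diet and tissue, was prepared with Trizol and Illumina TruSeq, per the labels' protocols. The submitters' processing notes name bcl2fastq 2.20, STAR 2.5.3a, RSEM (no version) and the genome GRCm38.p5. Not given in the sources used here were the filters, the normalization and the annotation release. The 12 tables (6 of genes, 6 of transcripts) are edgeR comparisons of 2 diets, per the file headers. The deposited log2 values are the authors' log2 fold change and log2 mean CPM. The deposited score is their likelihood-ratio statistic, and the deposited p-value columns are p and FDR.

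The planned models of counts were not run, since the tables hold comparisons only, and the deposited test was used instead, as the design allowed. An FDR under 0.05 was called. A chi-square p (1 degree of freedom) from the statistic came within 5.00e-06 of the deposited p, and a new Benjamini-Hochberg adjustment lay within 0.00626 of the FDR. Approximate standard errors, intervals and levels were computed with Python 3.11.15, numpy 2.4.6, pandas 2.3.3 and scipy 1.17.1. The approximate z test of tissues was tried on simulated data drawn with the same approximate SEs and with independent noise in the tissues. Such draws cannot show whether those SEs, or the lack of correlation between tissues, hold for these mice. An animal number shared by a CR and a TR label was counted as different mice. Replicates are mice per the labels. Identifiers were matched to GENCODE M21 (GRCm38) for 16050 of 16060 genes. The members and gene lists were chosen with earlier results of these data known. One gene of the list of other secreted factors is not reported here and is left out of that list's counts. All 10 members are named, with up to 5 genes of each list by smallest FDR and any gene behind a count of 5 or fewer. Genes named beside these, such as receptors and regulators, were chosen after their values were seen. Alternatives were other thresholds (0.1, 0.01), minimum log2 mean CPM of 1 or 3, centring, and correlations of 0.3 and -0.3 between tissues. The adjustment was also recomputed, and it was repeated for iWAT genes with hepatocyte and muscle markers left out.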

Additional observations from a re-analysis of the deposited data

Results flagged for a closer look

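Of the 5 adipokine genes measured in both tissues, 1 had a diet effect that differed between them in CR (Rarres2). In TR, 2 of the 5 did (Rarres2 and Rbp4). Over all genes measured in both tissues, 6.73% passed the approximate z test in CR and 7.81% in TR. Rarres2 had an iWAT value less its liver value of -1.49 for CR minus AL (approximate z test, adjusted p = 2.08e-04), with -1.12 in iWAT and 0.37 in liver in the authors' deposited table. For TR minus AL the difference of Rarres2 was -1.32 (adjusted p = 0.0173), with -0.81 in iWAT and 0.51 in liver in the authors' deposited table. Rbp4 had a difference of 1.53 for TR minus AL (adjusted p = 0.0040), with 1.67 in iWAT and 0.13 in liver in the authors' deposited table. The test takes both tissues of a mouse as uncorrelated, and with a correlation of -0.3 the TR difference of Rarres2 had an adjusted p of 0.0505. Of 9 hepatocyte markers in iWAT, 8 fell in CR, where 3.78% of all genes fell. None of the 9 passed the test in TR, where they summed to 6726 CPM against 1033 CPM in AL. With the share of liver RNA that they give taken off, the iWAT log2 ratio for TR against AL was 1.58 for Rbp4 and -0.92 for Rarres2. These ratios have no error and were not tested.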

How the results depend on the processing

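The tables hold no values per library, so replicates left out and other normalizations were not run, and depth sets a limit that cannot be stated. No paired analysis was possible because the tables hold comparisons of groups and no values per animal. Over the alternatives run, 96 counts stayed within 1.5 times their reported value and 8 did not. Recomputing the adjustment and leaving out hepatocyte and muscle markers cannot change a member's fold change, and neither changed a call. Both therefore add to the counts and single values that stayed the same by how they were built. With an adjusted p under 0.01, members called numbered 2 in iWAT for TR minus AL and 1 in liver for CR minus AL. With a minimum log2 mean CPM of 1, 1 member was called in liver for CR minus AL, since Cfd was left out. At a minimum of 3, 0 were called there and 1 in liver for TR minus AL. A correlation of -0.3 between tissues left 1 tissue difference for TR minus AL, since Rarres2 had an adjusted p of 0.0505, and a correlation of 0.3 gave Cfd one of 0.0167. Centring on the adipocyte markers, chosen for the lists after seeing the data, left 2 receptor and partner genes lower in CR and 2 in TR. Of single genes and transcripts, 747 values kept direction and call, 7 gained a call, 8 lost one and 3 changed sign: Cfd for TR minus AL (-0.075) and Nampt for CR minus TR (0.080) when centred on the adipocyte markers, and Rarres2-203 for CR minus TR (-0.0038) when centred on the median of all transcripts. None of these 3 was called.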

Other observations

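Among genes that receive, bind or act with adipokines, 18 were measured in the liver. In CR, 3 rose (Adipor2, Cfb and Ttr) and none fell, where 5.79% of all liver genes rose. In TR, 4 rose (Adipor2, Cfb, Lepr and Ttr) and none fell, where 9.35% of all liver genes rose. Adipor2, an adiponectin receptor, was at 706 CPM in CR against 463 CPM in AL and at 678 CPM in TR against 465 CPM in AL. The authors' deposited table gave it 0.61 in CR and 0.54 in TR (SE 0.14 each, adjusted p = 2.79e-04 and 0.0012). The other adiponectin receptor, Adipor1, had 0.14 and 0.11 in the authors' deposited table and did not pass. Lepr, the leptin receptor, was at 3.28 CPM in CR and 6.47 CPM in TR, against 3.69 CPM in AL. It rose in TR by 0.81 in the authors' deposited table (SE 0.26, adjusted p = 0.0137), and CR minus TR was -0.98 (SE 0.26, adjusted p = 0.0331). Lepr was the only 1 of 18 measured receptor and partner genes to pass for CR minus TR in liver.

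The liver tables against AL held 15 genes for adipokine production and secretion. In CR, 3 rose (Cebpb, Erp44 and Srebf1) and 2 fell (Pparg and Sp1). In TR, 2 rose (Cebpb and Srebf1) and 3 fell (Nmnat3, Pparg and Sp1). The shares over all liver genes were 5.79% higher and 5.37% lower for CR minus AL. They were 9.35% higher and 9.54% lower for TR minus AL. Srebf1, a regulator of lipid synthesis genes, was at 287 CPM in CR against 89.0 CPM in AL and at 344 CPM in TR against 89.8 CPM in AL. Its values were 1.69 in CR and 1.94 in TR, per the authors' deposited table (adjusted p = 5.75e-09 and 3.66e-13).

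Genes of beige and brown fat cells, which are known to release neuregulin 4, rose in iWAT on both diets in 6 of 7 cases. Of all genes in iWAT, 3.52% rose in CR and 4.76% rose in TR. Cidea was at 353 CPM in CR against 20.9 CPM in AL and at 339 CPM in TR against 20.5 CPM in AL. Ucp1, the uncoupling protein of thermogenic fat, had 4.13 in CR and 2.88 in TR, per the authors' deposited table (adjusted p = 1.28e-04 and 0.010). For CR minus TR none of the 7 passed, with 1 at an unadjusted p under 0.05. Among adipocyte markers, Slc2a4, the insulin-responsive glucose transporter, rose in CR by 1.12 and in TR by 1.30 in the authors' deposited table (adjusted p = 0.0111 and 0.0029). In TR, Fabp4 and Gpd1 also rose, while Acvr1c, Adrb3, Pck1 and Plin4 fell, so the adipocyte markers did not move one way together.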
